A study of Mus musculus with 8 samples.

Results

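The genes of collagens, laminins, integrins and of the matrix proteins Fn1, Sparc, Nid1, Nid2 and Hspg2 were followed in mouse embryonic stem cells with and without deletion of Ino80. They were taken by a rule on gene symbols, which was set with earlier results of these data known, and 79 of the 24505 genes in each file matched. The set held 22 basement membrane genes, 11 fibrillar collagens, 25 other collagens, the pair Fn1 and Sparc, and 19 integrins. Integrins with a letter in place of a number, such as Itgav, lie outside the rule and are described apart. Of the 79 genes, 52 reached 1 RPKM (reads per kilobase of gene, scaled to library size) in at least 2 libraries and were tested. These were 14 basement membrane genes, 9 fibrillar collagens, 12 other collagens, Fn1 and Sparc, and 15 integrins.

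Basement membranes are thin sheets of matrix that underlie epithelia and surround the early epiblast. Laminins, each made of an alpha, a beta and a gamma chain, assemble at the cell surface, and a network of collagen IV is tied to them by nidogens and by the proteoglycan perlecan, the product of Hspg2. Fibrillar collagens form the fibres of connective tissue. Integrins are receptors of an alpha and a beta subunit that bind these proteins outside the cell and connect to actin inside it. In mouse embryos, laminin and the shared subunit Itgb1 are needed for the epiblast to develop around implantation.

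The 8 libraries fell into 4 groups of 2: naive knockout, naive wild type, primed knockout and primed wild type. All carry the line label INO80 CKO, a conditional allele of Ino80, which encodes the ATPase of a chromatin remodelling complex. Deletion was induced with 100 nM 4-OHT (4-hydroxytamoxifen) for 2 days, and cells were used 2 days later. The labels do not say whether the wild-type cells received 4-OHT, or the age or number of clones. Naive cells grew on gelatin with the MEK inhibitor PD0325901, the GSK3 inhibitor CHIR99021 and 1000 units/ml LIF. Primed cells grew on human fibronectin with 12 ng/ml FGF-2, 20 ng/ml Activin A and 2 uM of the tankyrase inhibitor XAV-939. State, medium and the protein coating the plate therefore cannot be told apart. The series asks what INO80 deletion does to gene expression in naive and in primed cells.

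The sequences before the starts of Lama5, Lamb2, Hspg2 and Sparc are shown as examples of genes that were higher in naive knockout libraries. In primed knockout libraries Lama5 and Lamb2 were called lower, Sparc was called higher and Hspg2 was not called. Other genes with a naive rise and a primed fall, such as Lamc1, are not shown. Each is the 250 bases upstream of the transcript start in RefSeq (build GRCm38.p6), 5′ to 3′ on the strand of the gene. They lie at chr2:180225860-180226109 (minus strand, Lama5), chr9:108479612-108479861 (plus strand, Lamb2), chr4:137468553-137468802 (plus strand, Hspg2) and chr11:55420081-55420330 (minus strand, Sparc). Capitals mark the GC box GGGCGG on either strand.
Lama5: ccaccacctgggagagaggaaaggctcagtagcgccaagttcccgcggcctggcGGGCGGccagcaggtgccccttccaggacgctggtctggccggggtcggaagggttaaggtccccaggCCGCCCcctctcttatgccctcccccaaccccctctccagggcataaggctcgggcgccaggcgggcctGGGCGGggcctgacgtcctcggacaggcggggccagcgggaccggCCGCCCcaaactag
Lamb2: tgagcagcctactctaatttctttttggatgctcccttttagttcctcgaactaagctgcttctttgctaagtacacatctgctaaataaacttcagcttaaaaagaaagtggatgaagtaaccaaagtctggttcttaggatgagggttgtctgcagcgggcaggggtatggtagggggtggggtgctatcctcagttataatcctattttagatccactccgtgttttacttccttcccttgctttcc
Hspg2: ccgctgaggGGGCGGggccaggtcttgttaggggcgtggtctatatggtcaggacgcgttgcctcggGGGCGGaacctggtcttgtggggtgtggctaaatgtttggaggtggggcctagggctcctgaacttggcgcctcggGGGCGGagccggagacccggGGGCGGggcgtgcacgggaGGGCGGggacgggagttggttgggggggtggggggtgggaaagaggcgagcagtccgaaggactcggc
Sparc: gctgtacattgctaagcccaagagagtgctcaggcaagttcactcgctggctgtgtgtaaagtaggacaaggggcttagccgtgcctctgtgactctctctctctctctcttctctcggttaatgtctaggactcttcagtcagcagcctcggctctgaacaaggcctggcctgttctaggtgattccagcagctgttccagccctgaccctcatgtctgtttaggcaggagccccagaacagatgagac
Lama5 held 4 GC boxes and Hspg2 held 5, and G and C made up 72.4% and 70.0% of their bases. No GC box lay in the windows of Lamb2 and Sparc, with 43.6% and 54.0% G and C. The TATA box TATAAA and the CCAAT box CCAAT, searched on both strands, were in none of the 4 windows. RefSeq promoters were found for 57 of the 79 genes, 63 in all. A GC box lay in 50.8% of these, against 32.7% of 32851 promoters of all genes. The TATA box lay in 7.9% against 12.4%, and the CCAAT box in 27.0% against 33.8%.

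Differences are given on the log2(RPKM + 1) scale, knockout minus wild type, ± the standard error, and a gene was called when its limma p adjusted over all 13428 tested genes was under 0.05. Ino80 itself stood at 15.9 and 15.1 RPKM in naive knockout, against 17 and 14.5 RPKM in naive wild type (-0.020 ± 0.18, limma adjusted p = 0.98). Among primed libraries it stood at 9.12 and 8.74 RPKM in primed knockout, against 15.9 and 20.3 RPKM in primed wild type (-0.93 ± 0.18, limma adjusted p = 2e-06). Ino80 thus does not tell the naive libraries labelled knockout from those labelled wild type. The median difference of all genes was 0.049 in the naive state and -0.53 in the primed state, so primed differences are also given relative to that median. In the primed state 59.3% of all genes were called lower, so knockout libraries below wild type without overlap set no gene apart by themselves. The share of all genes without overlap is not given here. Genes too low to test, such as Col4a3 and Itgb6, also had both primed knockout libraries below both wild-type libraries. Wild-type replicates were shifted against each other. Of the 52 tested genes, 47 were higher in naive wild-type replicate 1 than in replicate 2, and all 52 were higher in primed wild-type replicate 2, as were most of all genes tested. Library sums of RPKM ran from 341480.0 to 507598, but read depth is unknown. The labels do not say whether replicates were separate cultures, and p-values reflect how far these libraries vary, possibly for technical reasons only. Because the authors scaled each state by itself, levels were not tested between states.

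The labelled cell type was checked against its markers. Pou5f1, a core pluripotency factor, lay between 559.6 and 694 RPKM in the 8 libraries. Of 9 markers of pluripotent cells, 3 were called higher and 4 lower in primed knockout, beside 4.16% and 59.3% of all genes. Their primed differences ran from -1.63 to 1.65. In the naive state 1 was called higher, beside 6.08%. The 9 summed to 1957 to 1969 RPKM in naive knockout and 1739 to 1914 RPKM in naive wild type. Primed sums were 935 to 977 RPKM in knockout and 909 to 997 RPKM in wild type. Esrrb, a factor of the naive state, stood at 201 and 197 RPKM in naive knockout, against 170.3 and 193 RPKM in naive wild type, and at 0.217 and 0.244 RPKM in primed knockout, against 2.17 and 2.9 RPKM in primed wild type. Extraembryonic endoderm is known for making laminin, collagen IV and Sparc, and 14 of its markers summed to 5.75 to 7.97 RPKM in naive knockout and 4.19 to 9.2 RPKM in naive wild type. Among primed libraries they summed to 3.32 to 3.7 RPKM in primed knockout and 4.46 to 6.88 RPKM in primed wild type. In RPKM, sums of the mesoderm and endoderm, neural and trophoblast lists differed by more between primed knockout and primed wild type. The trophoblast list was far more abundant than that of extraembryonic endoderm, so this does not rank them by relative change. The 7 markers of mesoderm and endoderm summed to 8.63 to 9.27 RPKM in naive knockout and 7.85 to 14.5 RPKM in naive wild type, and to 41.4 to 45 RPKM in primed knockout and 3.79 to 5.6 RPKM in primed wild type, where T (brachyury) and Eomes were called higher in knockout. The 6 neural markers summed to 75.2 to 77.6 RPKM in naive knockout and 39.9 to 44.5 RPKM in naive wild type, and to 26.4 to 27.9 RPKM in primed knockout and 69.9 to 87.3 RPKM in primed wild type. Tubb3 was called higher in naive knockout, and Tubb3, Sox1 and Pax6 lower in primed knockout. The 7 trophoblast markers summed to 21.4 to 23.2 RPKM in naive knockout and 17.5 to 25.7 RPKM in naive wild type, and to 87.2 to 94 RPKM in primed knockout and 66 to 79.5 RPKM in primed wild type. Their part in the differences of the matrix genes was not tested.

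A few genes made up most of the matrix signal in every group. Fn1, the gene of fibronectin, had the highest mean RPKM of the set in naive knockout and naive wild type, with 23.3% and 22.8% of the summed RPKM of all 79 genes. Itgb1 had the highest in primed knockout and primed wild type, with 18.4% and 18.6%. Lamc1, the gamma chain of most laminins, ranked 2 in both naive groups. Sparc, a secreted protein that binds collagen, ranked 3 in naive knockout, 5 in naive wild type and 2 in both primed groups. Basement membrane genes summed to 468 and 456 RPKM in naive knockout, against 381 and 369.7 RPKM in naive wild type, and fibrillar collagens to 13.6 and 11.2 RPKM in naive knockout, against 14.1 and 8.31 RPKM in naive wild type. Primed sums were 349 and 319 RPKM in primed knockout, against 421 and 509 RPKM in primed wild type for basement membrane genes, and 35.9 and 32.8 RPKM in primed knockout, against 55.7 and 78.9 RPKM in primed wild type for fibrillar collagens. Knockout sums lay above wild-type sums for naive basement membrane genes and below them for both classes in the primed state, and naive fibrillar sums overlapped.

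**Figure D1:**
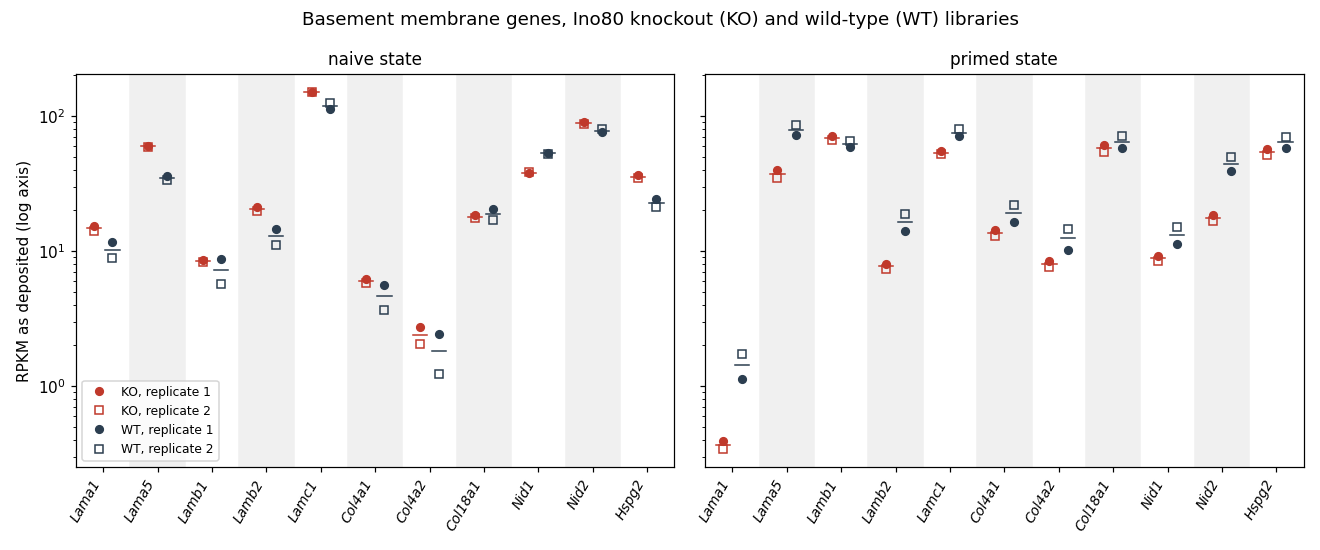
RPKM as deposited (log axis) of basement membrane genes in each library, with knockout left of wild type, filled circles for replicate 1, open squares for replicate 2 and bars at the mean. Lama5 is higher in knockout in the naive panel (60.5 and 58.6 against 36.1 and 33.6 RPKM) and lower in knockout in the primed panel (40.01 and 35 against 72.1 and 86.2 RPKM).

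In the naive state, laminin chains and perlecan rose in knockout libraries and nidogen 1 fell. Of 14 basement membrane genes tested, 5 rose and 1 fell, beside 6.08% and 5.85% of all genes, and their median difference was 0.31. Lama5, the alpha chain of laminin-511, a coating on which pluripotent cells are grown, stood at 60.5 and 58.6 RPKM in naive knockout, against 36.1 and 33.6 RPKM in naive wild type (0.76 ± 0.11, limma adjusted p = 1.2e-09). Hspg2 stood at 36.7 and 34.6 RPKM in naive knockout, against 24.1 and 21.1 RPKM in naive wild type (0.64 ± 0.12, limma adjusted p = 4e-06). For both genes each knockout library was above each wild-type library, and the call held whichever library was left out. In bulk RNA, fewer cells of a type and less RNA per cell cannot be told apart.

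Lamb2 and Lamc1 rose with less support. Lamb2, a beta chain, stood at 21.3 and 19.7 RPKM in naive knockout, against 14.5 and 11.1 RPKM in naive wild type (0.64 ± 0.19, limma adjusted p = 0.0084). Lamc1 stood at 151 and 151 RPKM in naive knockout, against 112 and 124 RPKM in naive wild type (0.35 ± 0.094, limma adjusted p = 0.0034). Both knockout libraries lay above both wild-type libraries for these genes. Nid1, which links laminin to collagen IV, was below wild type in both knockout libraries, at 37.5 and 38.8 RPKM in naive knockout, against 53 and 52.6 RPKM in naive wild type (-0.46 ± 0.15, limma adjusted p = 0.024). Its paralogue Nid2 did not pass as deposited, at 91 and 87.8 RPKM in naive knockout, against 75.6 and 80.2 RPKM in naive wild type (0.20 ± 0.11, limma adjusted p = 0.29). It was called higher after quantile normalization (0.17, limma adjusted p = 0.0048). Nid2 overlaps 2700060E02Rik in the annotation, which stood at 110.3 and 113 RPKM in knockout against 107 and 125 RPKM in wild type.

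Leaving out 1 library ended several of these calls. Without naive knockout replicate 1 the limma adjusted p was 0.36 for Lamb2, 0.16 for Lamc1 and 0.44 for Nid1, and without replicate 2 it was 0.19, 0.17 and 0.34. Without naive wild-type replicate 1 it was 0.088 for Lamc1 and 0.11 for Nid1, and without replicate 2 it was 0.18 for Lamb2 and 0.12 for Nid1. Without primed knockout replicate 1 or 2, which share in the estimate of the spread, it was 0.058 and 0.057 for Nid1. Median centring ended the call of Lamc1 (0.29, limma adjusted p = 0.22).

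Among markers of extraembryonic endoderm, 3 of 14 were tested and none was called by limma as deposited (1 had an unadjusted p under 0.05, higher in knockout). After quantile normalization, which gives all libraries the same distribution, 1 was called higher and 1 lower, beside 31.9% and 27.5% of all genes. Median centring and loess normalization each gave 1 called higher and none lower, with the shares of all genes not given. The transcription factor Gata6 stood at 1.99 and 1.3 RPKM in naive knockout, against 0.903 and 0.482 RPKM in naive wild type (0.64 ± 0.24, limma adjusted p = 0.062). Gata4 stood at 2.43 and 1.83 RPKM in naive knockout, against 2.86 and 1.86 RPKM in naive wild type, where the groups overlapped. Afp and Ttr were under 0.1 RPKM in every library. The part of such cells in the naive rises was not tested.

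Laminin-111 and collagen IV did not pass in the naive state as deposited. Lama1 and Lamb1 form laminin-111, the earliest laminin of the mouse embryo, together with Lamc1. Lama1 stood at 15.3 and 14.1 RPKM in naive knockout, against 11.7 and 8.84 RPKM in naive wild type (0.49 ± 0.28, limma adjusted p = 0.29). Lamb1 stood at 8.64 and 8.35 RPKM in naive knockout, against 8.69 and 5.7 RPKM in naive wild type (0.24 ± 0.15, limma adjusted p = 0.36). Knockout lay above wild type in every library for Lama1, and the groups overlapped for Lamb1. Col4a1 and Col4a2 encode the chains of the common collagen IV trimer. Col4a1 stood at 6.18 and 5.82 RPKM in naive knockout, against 5.62 and 3.67 RPKM in naive wild type (0.33 ± 0.22, limma adjusted p = 0.4), and Col4a2 at 2.73 and 2.06 RPKM in naive knockout, against 2.43 and 1.24 RPKM in naive wild type (0.29 ± 0.27, limma adjusted p = 0.6). Knockout lay above wild type for Col4a1 and overlapped it for Col4a2. Lama1, Lamb1, Col4a1 and Col4a2 were called higher after quantile normalization (0.43, 0.16, 0.27 and 0.28, limma adjusted p = 0.00022, 0.012, 0.00057 and 0.0063). Of the 14 basement membrane genes tested, 10 were then higher and 3 lower, beside 31.9% and 27.5% of all genes. Lama3, Col4a5 and Col18a1 differed by -0.34, -0.023 and -0.056 and were not called as deposited. The genes not tested were Col4a3, Col4a4, Col4a6, Col15a1, Lama2, Lama4, Lamb3 and Lamc3, with no value above 1.43 RPKM.

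**Figure D2:**
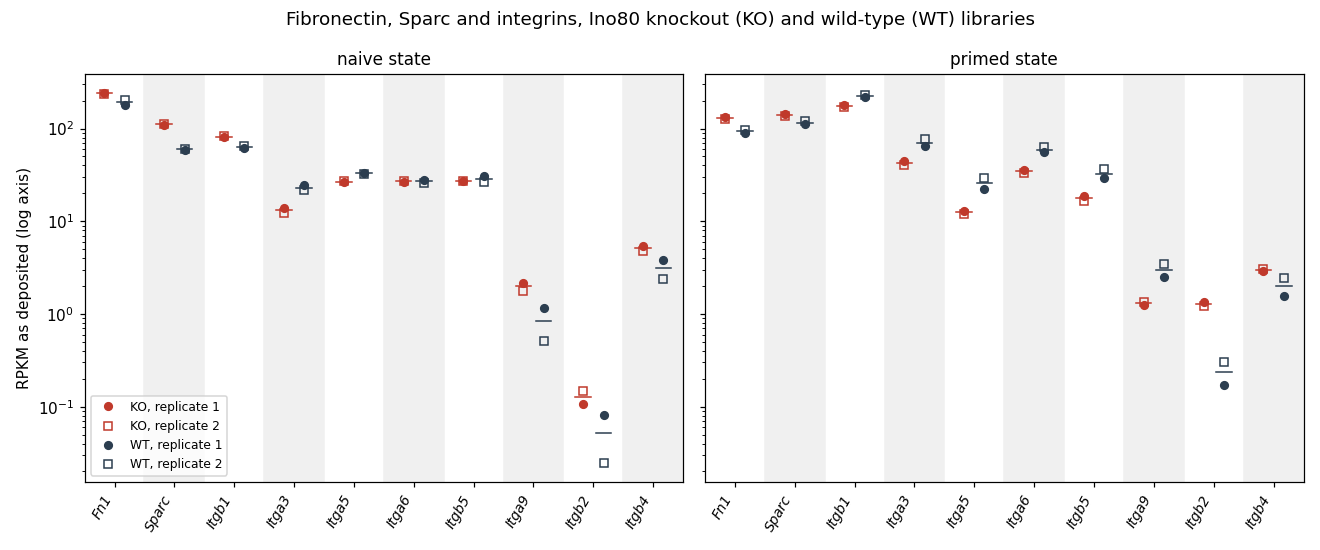
RPKM as deposited (log axis) of Fn1, Sparc and integrins in each library, with knockout left of wild type, filled circles for replicate 1, open squares for replicate 2 and bars at the mean. Sparc is at 109.5 and 112 RPKM in naive knockout against 59.1 and 60.6 RPKM in naive wild type, and Itgb2 at 1.36 and 1.23 RPKM in primed knockout against 0.171 and 0.307 RPKM in primed wild type.

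Sparc and Fn1 were higher in knockout than in wild type in both states. Sparc stood at 109.5 and 112 RPKM in naive knockout, against 59.1 and 60.6 RPKM in naive wild type (0.88 ± 0.092, limma adjusted p = 6.3e-19). In the primed state it stood at 143 and 135 RPKM in primed knockout, against 112 and 119.8 RPKM in primed wild type (0.26 ± 0.092, limma adjusted p = 0.0087). The ratio of its means was 1.85 in the naive and 1.2 in the primed state, and the groups overlapped in neither. Fn1 stood at 244 and 237 RPKM in naive knockout, against 182 and 204 RPKM in naive wild type (0.32 ± 0.085, limma adjusted p = 0.0026). In the primed state, where cells grew on fibronectin of human origin, it stood at 132 and 127 RPKM in primed knockout, against 89 and 97 RPKM in primed wild type (0.48 ± 0.085, limma adjusted p = 1.1e-07). Again no wild-type library reached a knockout library. Relative to the median of all genes, the primed differences were 1.01 for Fn1 and 0.79 for Sparc. Primed knockout replicate 1 decided the primed call of Sparc (limma adjusted p = 0.13 without it). The naive call of Fn1 ended without naive knockout replicate 1 or 2 or naive wild-type replicate 1 (limma adjusted p = 0.18, 0.094 and 0.075) and after median centring (0.36).

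Among the receptors of the naive state, Itgb1 rose and Itga3 fell. They were the called genes of 15 integrins tested, 6.67% in each direction and so close to the 6.08% and 5.85% of all genes, and the median difference was -0.0039. Itgb1 stood at 80.6 and 82.7 RPKM in naive knockout, against 62.1 and 64.9 RPKM in naive wild type (0.36 ± 0.089, limma adjusted p = 0.0011). Itga3, which pairs with Itgb1 to bind laminin-511, stood at 13.9 and 12.3 RPKM in naive knockout, against 24.5 and 21.7 RPKM in naive wild type (-0.77 ± 0.13, limma adjusted p = 2.5e-07). Neither pair of groups overlapped, and the ratio of Itga3 to Itgb1 was 0.173 and 0.149 in naive knockout, against 0.394 and 0.335 in naive wild type. The call of Itgb1 ended without naive knockout replicate 1 or 2 (limma adjusted p = 0.057 and 0.11) and after median centring (0.30, limma adjusted p = 0.24).

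The other subunits of the naive cells did not pass as deposited. Itga5, which binds fibronectin, stood at 26.6 and 26.9 RPKM in naive knockout, against 33.3 and 32.3 RPKM in naive wild type (-0.29 ± 0.15, limma adjusted p = 0.23), below wild type in both libraries. Itga6, a laminin receptor, stood at 26.5 and 27.3 RPKM in naive knockout, against 28 and 26.1 RPKM in naive wild type (-0.0069 ± 0.13, limma adjusted p = 0.99). Itgb5, a partner of Itgav, stood at 27.1 and 27.1 RPKM in naive knockout, against 30.8 and 26.5 RPKM in naive wild type (-0.075 ± 0.14, limma adjusted p = 0.84). The groups overlapped for Itga6 and Itgb5. Itga9 and the hemidesmosome subunit Itgb4 were higher in both knockout libraries without being called, with differences of 0.72 ± 0.27 and 0.59 ± 0.28 (limma adjusted p = 0.064 and 0.18). Quantile normalization gave calls for Itga5 and Itgb5 (lower, -0.31 and -0.12, limma adjusted p = 0.00015 and 0.034). Itga9 and Itgb4 were then called higher (0.73 and 0.55, limma adjusted p = 3e-05 and 6.8e-05), and Itga6 was not called. Of the 15 integrins tested, 4 were higher and 4 lower with that scaling, beside 31.9% and 27.5% of all genes. Itga2, Itga4, Itga11 and Itgb6 were not tested, with no value above 0.247 RPKM.

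**Figure D3:**
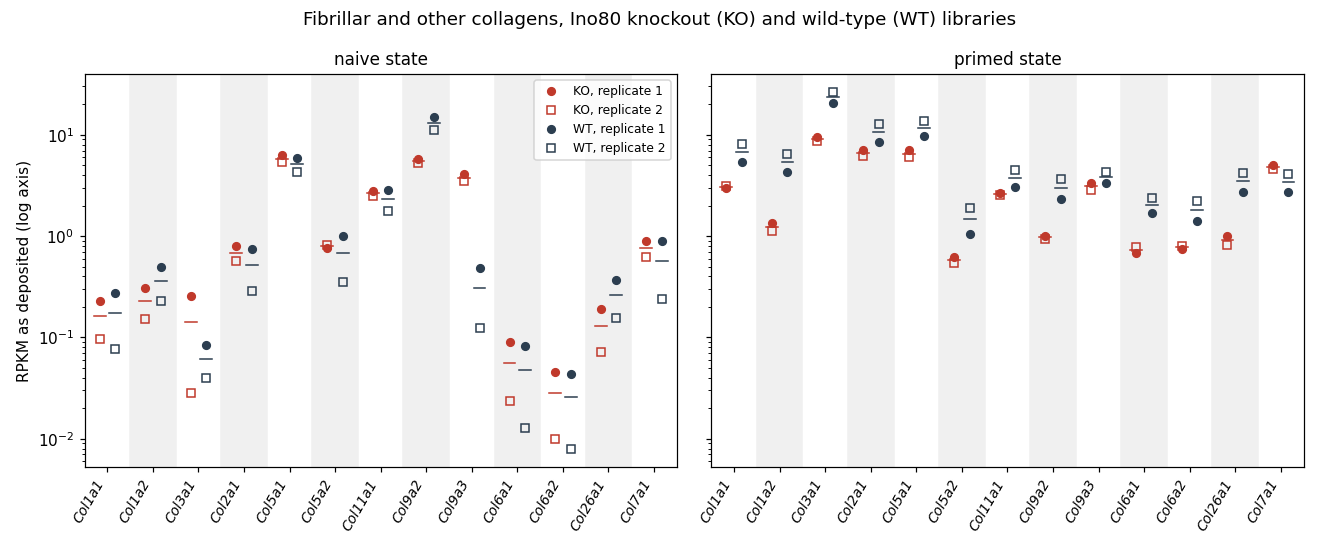
RPKM as deposited (log axis) of fibrillar and other collagens in each library, with knockout left of wild type, filled circles for replicate 1, open squares for replicate 2 and bars at the mean. Col9a3 is at 4.09 and 3.48 RPKM in naive knockout against 0.488 and 0.124 RPKM in naive wild type, and Col1a2 at 1.36 and 1.12 RPKM in primed knockout against 4.32 and 6.4 RPKM in primed wild type.

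Fibrillar collagens were low in the naive state, and limma called none of the 9 tested (0 had an unadjusted p under 0.05 in either direction). Col5a1, a chain of the collagen V that starts fibrils, was the most abundant, at 6.25 and 5.39 RPKM in naive knockout, against 5.96 and 4.28 RPKM in naive wild type (0.17 ± 0.25, limma adjusted p = 0.78), and its groups overlapped. Col1a1 and Col3a1, major collagens of connective tissue, did not exceed 0.276 RPKM in any naive library. After quantile normalization Col2a1 was called higher (0.18, limma adjusted p = 0.045).

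Of all 52 genes, the largest naive differences in each direction were those of Col9a3 and Col9a2. Both encode chains of collagen IX, which sits on the fibrils of cartilage. Col9a3 stood at 4.09 and 3.48 RPKM in naive knockout, against 0.488 and 0.124 RPKM in naive wild type (1.89 ± 0.28, limma adjusted p = 1.8e-09), a ratio of means of 12.4. Col9a2 stood at 5.76 and 5.3 RPKM in naive knockout, against 15 and 11.3 RPKM in naive wild type (-1.10 ± 0.28, limma adjusted p = 0.0014). The groups overlapped for neither gene, and the ratio of Col9a3 to Col9a2 was 0.709 and 0.658 in naive knockout, against 0.0325 and 0.011 in naive wild type. The remaining chain, Col9a1, did not exceed 0.0447 RPKM in any library. Col9a3 overlaps Tcfl5 in RefSeq, and whether reads were counted by strand is not stated, so the pair may share reads. Tcfl5 stood at 8.82 and 8.55 RPKM in naive knockout, against 9.12 and 6.42 RPKM in naive wild type (0.16 ± 0.18, limma adjusted p = 0.67). The Col9a3 call held whichever library was left out, and that of Col9a2 ended without naive knockout replicate 1 or 2 (limma adjusted p = 0.079 and 0.14).

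The remaining non-fibrillar collagens were not called in the naive state as deposited. Of the 12 tested, which include Col9a2 and Col9a3, 2 were higher and 3 lower after quantile normalization, beside 31.9% and 27.5% of all genes. Col13a1, a transmembrane collagen, stood at 0.972 and 0.875 RPKM in naive knockout, against 2.7 and 1.48 RPKM in naive wild type (-0.66 ± 0.25, limma adjusted p = 0.063), and both its knockout libraries lay below both wild-type libraries. Those below the filter were Col6a3, Col6a4, Col6a6, Col8a1, Col8a2, Col9a1, Col10a1, Col14a1, Col17a1, Col19a1, Col23a1, Col25a1 and Col28a1, with no value above 1.22 RPKM. The fibrillar Col5a3 and Col24a1 were below it as well, with no value above 0.555 RPKM.

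Over all 52 genes of the naive state, 9 rose and 3 fell, 17.3% and 5.77% beside 6.08% and 5.85% of all genes. After quantile normalization 19 were higher and 10 lower, beside 31.9% and 27.5% of all genes. Of the 9 that rose, 9 were also called higher then, and 6 after median centring. The 3 that fell were called lower under both.

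In the primed state, nidogen 2 and the laminin chains Lama5 and Lamb2 fell in knockout libraries by more than the median gene. Of 14 basement membrane genes tested, 7 fell, beside 59.3% of all genes, and none was called higher by limma (0 at an unadjusted p under 0.05), beside 4.16%. Their median difference was -0.50, against -0.53 over all genes. After quantile normalization 6 were higher and 5 lower, beside 39.4% and 34.6% of all genes. Nid2 stood at 18.5 and 16.8 RPKM in primed knockout, against 39.1 and 49.8 RPKM in primed wild type (-1.28 ± 0.11, limma adjusted p = 3.6e-28), or -0.75 relative to the median gene. The overlapping 2700060E02Rik stood at 89.4 and 81.6 RPKM in knockout against 119.8 and 131 RPKM in wild type.

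Lama5 stood at 40.01 and 35 RPKM in primed knockout, against 72.1 and 86.2 RPKM in primed wild type (-1.05 ± 0.11, limma adjusted p = 1e-19), or -0.52 relative to the median gene. Lamb2 stood at 7.99 and 7.4 RPKM in primed knockout, against 14.1 and 18.9 RPKM in primed wild type (-1.0 ± 0.19, limma adjusted p = 6.5e-07), or -0.46 relative to it. For Nid2, Lama5 and Lamb2 no knockout library reached a wild-type one, the calls held whichever library was left out, and quantile normalization gave -0.78, -0.64 and -0.31. Lama1, abundant in naive cells, was low here, at 0.39 and 0.342 RPKM in primed knockout, against 1.12 and 1.72 RPKM in primed wild type (-0.82 ± 0.28, limma adjusted p = 0.0071), or -0.28 relative to the median gene. Beside ratios of primed means of 0.474 for Lama5 and 0.467 for Lamb2, Lama1 had 0.257. The + 1 shrank its difference at these low values. Its call ended without primed knockout replicate 1 or 2 or primed wild-type replicate 2 (limma adjusted p = 0.073, 0.1 and 0.076) and after median centring (0.12).

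Lamc1 and Nid1 were called lower by amounts close to that of the median gene. Lamc1 stood at 54.6 and 52.3 RPKM in primed knockout, against 70.7 and 80.3 RPKM in primed wild type (-0.49 ± 0.094, limma adjusted p = 1.1e-06) and Nid1 at 9.25 and 8.5 RPKM in primed knockout, against 11.3 and 15 RPKM in primed wild type (-0.51 ± 0.15, limma adjusted p = 0.0016). Relative to the median gene they differed by 0.046 and 0.021. Median centring turned the sign of Lamc1 (0.21), which was called lower after quantile normalization (-0.099, limma adjusted p = 0.008). For Nid1 quantile normalization gave 0.18, and the gene was then called higher (limma adjusted p = 0.00081). The call as deposited of Nid1 ended without primed knockout replicate 2 (limma adjusted p = 0.053), and without primed wild-type replicate 2 the difference of Nid1 was -0.32.

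Lamb1, perlecan and collagen IV did not pass in the primed state as deposited. Lamb1 stood at 71.4 and 65.9 RPKM in primed knockout, against 59.2 and 65.7 RPKM in primed wild type (0.14 ± 0.15, limma adjusted p = 0.43), and was called higher after quantile normalization (0.50, limma adjusted p = 1.2e-05). Hspg2 stood at 56.9 and 51.1 RPKM in primed knockout, against 58.2 and 70.1 RPKM in primed wild type (-0.24 ± 0.12, limma adjusted p = 0.068). Col4a1 stood at 14.3 and 13 RPKM in primed knockout, against 16.5 and 22.1 RPKM in primed wild type (-0.46 ± 0.22, limma adjusted p = 0.061), and Col4a2 at 8.47 and 7.61 RPKM in primed knockout, against 10.1 and 14.7 RPKM in primed wild type (-0.55 ± 0.27, limma adjusted p = 0.068). Knockout lay above wild type for Lamb1 and below it for the other 3. After quantile normalization the sign of Hspg2, Col4a1 and Col4a2 turned, Col4a2 without a call (0.16, limma adjusted p = 0.054), and Hspg2 and Col4a1 were called higher (0.14 and 0.17, limma adjusted p = 0.01 and 0.0037).

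Some pairs of chains held a steady ratio within a state and others did not. A ratio within a library is not changed by a common scale factor for all its genes. It can change under scaling that depends on abundance, such as quantile normalization, and the authors' method of scaling is not stated. The ratios carry no test here. Col4a1 and Col4a2 are transcribed head to head from starts 21 bases apart on chromosome 8 (positions 11312826, minus strand, and 11312805, plus strand, RefSeq, GRCm38.p6). Their ratio was 1.69 and 1.71 in primed knockout, against 1.63 and 1.5 in primed wild type. In the naive state it was 2.26 and 2.83 in naive knockout, against 2.32 and 2.97 in naive wild type, where the groups overlapped. The beta chains changed balance, with Lamb1 to Lamb2 at 8.93 and 8.91 in primed knockout, against 4.19 and 3.48 in primed wild type, and at 0.406 and 0.425 in naive knockout, against 0.598 and 0.512 in naive wild type. Nid1 to Nid2 was 0.413 and 0.442 in naive knockout, against 0.701 and 0.656 in naive wild type, and 0.50 and 0.507 in primed knockout, against 0.29 and 0.302 in primed wild type. The ratio in knockout was thus below wild type in the naive and above it in the primed state for both pairs.

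Collagen I and collagen III genes fell in primed knockout libraries. Of 9 fibrillar collagens tested 5 fell and none was called higher by limma (0 at an unadjusted p under 0.05), so that 55.6% were lower beside 59.3% of all genes. Their median was -0.63, against -0.53 over all genes. After quantile normalization 3 were higher and 2 lower, beside 39.4% and 34.6% of all genes. Col1a2 stood at 1.36 and 1.12 RPKM in primed knockout, against 4.32 and 6.4 RPKM in primed wild type (-1.49 ± 0.26, limma adjusted p = 9.8e-08), or -0.95 relative to the median gene. Col3a1 stood at 9.53 and 8.75 RPKM in primed knockout, against 20.5 and 26.5 RPKM in primed wild type (-1.26 ± 0.28, limma adjusted p = 2.9e-05), or -0.73 relative to it. Col1a1 stood at 2.97 and 3.14 RPKM in primed knockout, against 5.38 and 8.12 RPKM in primed wild type (-0.91 ± 0.27, limma adjusted p = 0.0018), or -0.38 relative to it. No knockout library reached a wild-type library for these genes. After quantile normalization Col1a2 and Col3a1 were called lower (-0.72 and -0.63, limma adjusted p = 3e-05 and 5.8e-05), and Col1a1 was not (-0.12, limma adjusted p = 0.12). Col1a1 and Col1a2 together make collagen I, and their ratio was 2.19 and 2.79 in primed knockout, against 1.25 and 1.27 in primed wild type. The Col1a1 call ended without primed knockout replicate 1 or primed wild-type replicate 2 (limma adjusted p = 0.051 and 0.072).

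The collagen V genes were called lower as deposited and not after quantile normalization, median centring or loess normalization. Col5a1 stood at 7.03 and 6.01 RPKM in primed knockout, against 9.69 and 13.8 RPKM in primed wild type (-0.75 ± 0.25, limma adjusted p = 0.0055). Col5a2, the neighbour of Col3a1 on chromosome 1, stood at 0.617 and 0.545 RPKM in primed knockout, against 1.06 and 1.9 RPKM in primed wild type (-0.63 ± 0.25, limma adjusted p = 0.022). Knockout was below wild type in every library, but quantile normalization gave -0.024 and -0.012 (limma adjusted p = 0.74 and 0.91), and median centring turned Col5a2 to 0.066. The Col5a1 call ended without primed knockout replicate 2 or primed wild-type replicate 2 (limma adjusted p = 0.14 and 0.11). That of Col5a2 ended without primed knockout replicate 1 or 2 (0.12 and 0.18) or naive knockout replicate 1 or 2 (0.053 and 0.052), and with either primed wild-type library left out it missed the filter of 1 RPKM in 2 libraries. Col2a1, the collagen of cartilage, stood at 7.04 and 6.15 RPKM in primed knockout, against 8.56 and 12.8 RPKM in primed wild type (-0.60 ± 0.28, limma adjusted p = 0.055).

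Markers of fibroblasts and mesenchyme were compared beside the fibrillar collagens. Of 11 such markers 6 were tested in the primed state, and 4 were lower, beside 59.3% of all genes: Dcn, Twist1, Pdgfrb and Thy1. Acta2 and Lgals1 were not called, with differences of 0.29 and -0.14. After quantile normalization Dcn and Pdgfrb were lower and Acta2 was higher, beside 34.6% and 39.4% of all genes. Dcn, a proteoglycan that binds collagen fibrils, stood at 1.32 and 1.3 RPKM in primed knockout, against 4.8 and 7.11 RPKM in primed wild type (-1.57 ± 0.26, limma adjusted p = 1.2e-08). The 11 markers summed to 157 to 171 RPKM in primed knockout and 178 to 202 RPKM in primed wild type, and 3 of them were under 0.1 RPKM in both primed knockout libraries. Their part in the difference of the collagens was not tested.

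Of 12 non-fibrillar collagens tested in the primed state, 4 fell and none was called higher by limma (0 at an unadjusted p under 0.05). The 33.3% that fell stand beside 59.3% of all genes. After quantile normalization 5 were higher and 3 lower, beside 39.4% and 34.6% of all genes. Col26a1 stood at 1.0 and 0.811 RPKM in primed knockout, against 2.75 and 4.18 RPKM in primed wild type (-1.21 ± 0.25, limma adjusted p = 7.2e-06). Col9a2 stood at 1.01 and 0.94 RPKM in primed knockout, against 2.31 and 3.68 RPKM in primed wild type (-1.0 ± 0.28, limma adjusted p = 0.00086). No knockout library reached a wild-type one, and both genes were also called lower after quantile normalization (-0.48 and -0.29). Col6a1 and Col6a2, neighbours on chromosome 10, encode chains of the collagen VI microfibrils. Col6a1 stood at 0.686 and 0.786 RPKM in primed knockout, against 1.69 and 2.38 RPKM in primed wild type (-0.80 ± 0.24, limma adjusted p = 0.0022), and Col6a2 at 0.752 and 0.808 RPKM in primed knockout, against 1.41 and 2.22 RPKM in primed wild type (-0.65 ± 0.24, limma adjusted p = 0.013). Both lost their call after quantile normalization (-0.15 and -0.0076), and median centring turned Col6a2 to 0.048. Without primed knockout replicate 1 the limma adjusted p was 0.059 for Col6a1 and 0.12 for Col6a2, and without replicate 2 it was 0.1 for Col6a2. With either primed wild-type library left out, both genes missed the filter of 1 RPKM in 2 libraries and were not tested.

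Col9a3 did not repeat its naive difference in the primed state. It stood at 3.34 and 2.86 RPKM in primed knockout, against 3.33 and 4.27 RPKM in primed wild type (-0.22 ± 0.28, limma adjusted p = 0.5), with overlapping groups, and was called higher after quantile normalization (0.55, limma adjusted p = 0.00022). The overlapping gene Tcfl5 was lower here, at 16.4 and 17.3 RPKM in primed knockout, against 42.5 and 54.4 RPKM in primed wild type (-1.46 ± 0.18, limma adjusted p = 2.7e-15). Col7a1, the collagen of anchoring fibrils in skin, stood at 5.05 and 4.61 RPKM in primed knockout, against 2.72 and 4.13 RPKM in primed wild type (0.42 ± 0.28, limma adjusted p = 0.18). Both its knockout libraries were above both wild-type libraries, and it was called higher after quantile normalization (1.16, limma adjusted p = 3.6e-06).

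Of 15 integrins tested in the primed state, 1 rose and 6 fell, beside 4.16% and 59.3% of all genes, with a median of -0.34 against -0.53 over all genes. The share that fell was thus below that of all genes, and after quantile normalization 9 were higher and 5 lower, beside 39.4% and 34.6%. The subunits Itga5, Itgb5, Itga6 and Itga3 fell by more than the median gene. Itga5 stood at 13 and 12 RPKM in primed knockout, against 22.2 and 29.3 RPKM in primed wild type (-0.97 ± 0.15, limma adjusted p = 4.2e-10). Itgb5 stood at 18.9 and 16.5 RPKM in primed knockout, against 29 and 36.3 RPKM in primed wild type (-0.84 ± 0.14, limma adjusted p = 1.8e-08). Knockout was below wild type in every library for both. Itga6 stood at 36 and 33.2 RPKM in primed knockout, against 55.6 and 63 RPKM in primed wild type (-0.76 ± 0.13, limma adjusted p = 1.2e-08), and Itga3 at 44.6 and 40.7 RPKM in primed knockout, against 64.7 and 76.5 RPKM in primed wild type (-0.71 ± 0.13, limma adjusted p = 3.5e-07), again without overlap. Relative to the median gene the 4 differed by -0.44, -0.31, -0.22 and -0.18, in the order given. Quantile normalization gave -0.37, -0.30, -0.34 and -0.31, all called lower. After median centring the calls of Itgb5, Itga6 and Itga3 ended (limma adjusted p = 0.18, 0.65 and 0.89).

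Itgb1, the partner of Itga3, Itga5 and Itga6, fell by less than the median gene. It stood at 181 and 172 RPKM in primed knockout, against 218 and 228 RPKM in primed wild type (-0.34 ± 0.089, limma adjusted p = 0.00035), or 0.19 relative to the median gene. Median centring turned its sign (0.35, limma adjusted p = 0.11). Itgb1 was still called lower after quantile and loess normalization (-0.14 and -0.12, limma adjusted p = 0.00053 and 0.0027). The ratio of Itga5 to Itgb1 was 0.0719 and 0.070 in primed knockout, against 0.102 and 0.128 in primed wild type. That of Itga6 to Itgb1 was 0.20 and 0.194 in primed knockout, against 0.255 and 0.276 in primed wild type. Both ratios were lower in knockout in the naive state too, with Itga5 to Itgb1 at 0.33 and 0.326 in naive knockout, against 0.536 and 0.498 in naive wild type, and Itga6 to Itgb1 at 0.329 and 0.33 in naive knockout, against 0.45 and 0.403 in naive wild type. Itga9, which binds tenascin, stood at 1.26 and 1.36 RPKM in primed knockout, against 2.49 and 3.43 RPKM in primed wild type (-0.77 ± 0.27, limma adjusted p = 0.0094). It was not called after quantile normalization (-0.053, limma adjusted p = 0.45), nor without primed knockout replicate 1 or 2 or primed wild-type replicate 2 (limma adjusted p = 0.12, 0.096 and 0.11).

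Itgb2, the beta subunit of leukocyte integrins, rose in primed knockout libraries. It stood at 1.36 and 1.23 RPKM in primed knockout, against 0.171 and 0.307 RPKM in primed wild type, a ratio of means of 5.41 (0.89 ± 0.23, limma adjusted p = 0.00037). Its alpha partners Itgal, Itgam, Itgax and Itgad did not exceed 0.135 RPKM in any primed library. With either primed knockout library left out, Itgb2 no longer reached the filter of 1 RPKM in 2 libraries and was not tested. Itgb4 stood at 2.91 and 3.03 RPKM in primed knockout, against 1.56 and 2.44 RPKM in primed wild type (0.42 ± 0.28, limma adjusted p = 0.18), with knockout above wild type in every library, and was called higher after quantile normalization (1.11, limma adjusted p = 5e-07).

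Over all 52 genes of the primed state, 3 rose and 22 fell, 5.77% and 42.3% beside 4.16% and 59.3% of all genes. After quantile normalization 25 were higher and 15 lower, beside 39.4% and 34.6%. Fn1, Sparc and Itgb2, the genes that rose, were called higher under quantile normalization, median centring and loess normalization. Itgb2 reached 1 RPKM only in primed knockout libraries, and Col5a2, Col6a1 and Col6a2 only in primed wild type. They thus passed the filter through the group where they were high, and their calls lend no separate support. Of the 22 that fell, 8 were called lower under all 3 of these scalings: Col1a2, Col3a1, Col9a2, Col26a1, Itga5, Lama5, Lamb2 and Nid2. The split between higher and lower thus depends on the scaling.

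**Figure D4:**
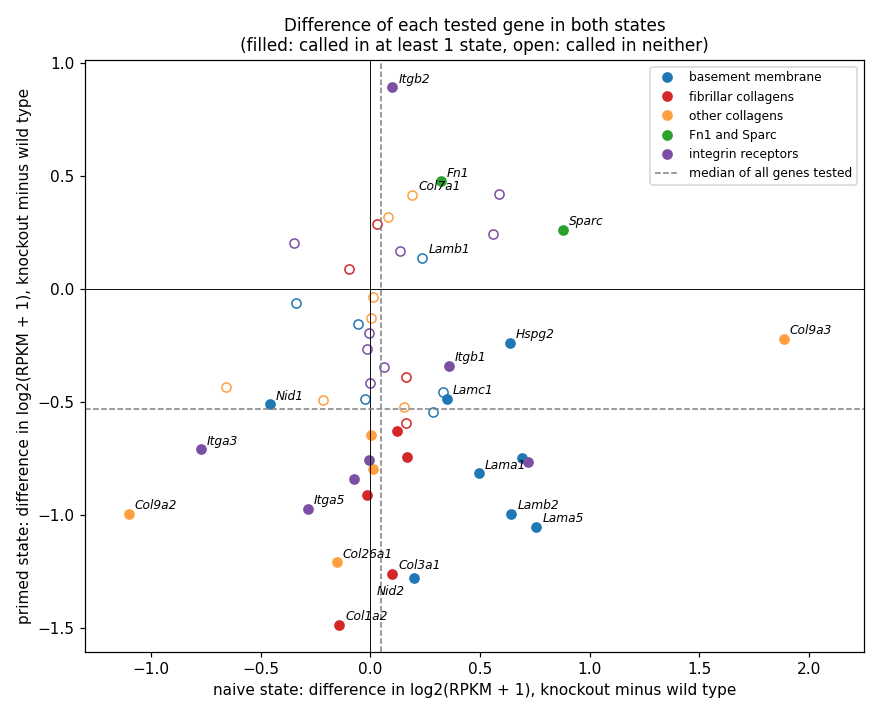
Difference in log2(RPKM + 1), knockout minus wild type, of the 52 tested genes in the naive (horizontal) and the primed state (vertical), coloured by class and filled where called in at least 1 state, with dashed lines at the medians of all genes tested. Fn1 and Sparc lie above 0 on both axes, and Lama5 (0.76 and -1.05) and Lamb2 (0.64 and -1.0) lie right of 0 and below it.

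The knockout effect itself was compared between the states, primed minus naive. Of the 52 genes 21 were called lower and 1 higher, beside 47.4% and 2.16% of all genes. The median was -0.58, against -0.59 over all genes. After quantile normalization 16 were lower and 24 higher, beside 30.5% and 33.9% of all genes. Laminin chains had among the largest differences. The effect on Lama5 was -1.81 ± 0.16 (limma adjusted p = 4.2e-28) and that on Lamb2 -1.64 ± 0.27 (limma adjusted p = 2e-08). Quantile normalization gave -1.37 and -0.88, both called lower. Nid2 and Col9a3 differed by -1.48 ± 0.16 and -2.11 ± 0.40 (limma adjusted p = 2e-18 and 1.7e-06), and by -0.95 and -1.44 after quantile normalization. Fn1 did not pass (0.16 ± 0.12, limma adjusted p = 0.26), nor did Nid1 (-0.054 ± 0.21, limma adjusted p = 0.84), Itga3 (0.061 ± 0.19, limma adjusted p = 0.79) and Col9a2 (0.11 ± 0.39, limma adjusted p = 0.83). After quantile normalization these 4 were called higher, at 0.36, 0.67, 0.51 and 0.87.

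Of 22 tested genes that modify and fold collagen, 14 fell and 2 rose in the primed state, beside 59.3% and 4.16% of all genes. In the naive state 2 rose, or 9.09% beside 6.08% of all genes, and none fell. After quantile normalization the primed counts were 10 lower and 7 higher, beside 34.6% and 39.4% of all genes. The same 2 genes rose in both states. Plod2, a lysyl hydroxylase of collagen, stood at 49.7 and 51.4 RPKM in naive knockout, against 33.4 and 32 RPKM in naive wild type (0.61 ± 0.12, limma adjusted p = 7.6e-06), and at 61.9 and 55.9 RPKM in primed knockout, against 28.9 and 36.6 RPKM in primed wild type (0.84 ± 0.12, limma adjusted p = 1.5e-11). Crtap, a subunit of the prolyl 3-hydroxylase complex, stood at 62.3 and 60.7 RPKM in naive knockout, against 45.4 and 47.5 RPKM in naive wild type (0.40 ± 0.13, limma adjusted p = 0.027), and at 22.8 and 21 RPKM in primed knockout, against 11 and 15.1 RPKM in primed wild type (0.72 ± 0.13, limma adjusted p = 3.6e-07). Among those that fell, P4ha1, a prolyl 4-hydroxylase subunit, stood at 7.61 and 7.32 RPKM in primed knockout, against 21.9 and 27.7 RPKM in primed wild type (-1.60 ± 0.22, limma adjusted p = 2.9e-12), and Pcolce, which aids the cleavage of procollagen, differed by -1.23 ± 0.15 (limma adjusted p = 5.2e-15).

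Of 17 tested adaptors that connect integrins to actin, 4 rose and 2 fell in the naive state, beside 6.08% and 5.85% of all genes. In the primed state 1 rose and 12 fell, beside 4.16% and 59.3% of all genes. The primed counts were 6 higher and 7 lower after quantile normalization, beside 39.4% and 34.6% of all genes. They were 8 higher and 3 lower after median centring, where all genes had a median of 0.16 and their called share is not given. Zyx, a focal adhesion protein, rose in both states, at 9.0 and 8.83 RPKM in naive knockout, against 6.69 and 4.85 RPKM in naive wild type (0.56 ± 0.15, limma adjusted p = 0.0028), and at 79.2 and 71.4 RPKM in primed knockout, against 53.5 and 63.5 RPKM in primed wild type (0.36 ± 0.15, limma adjusted p = 0.027). Talin, the product of Tln1, activates integrins, and its gene stood at 59.2 and 59 RPKM in naive knockout, against 42.6 and 41.7 RPKM in naive wild type (0.48 ± 0.11, limma adjusted p = 0.00052). The naive falls were Tns1 (-0.88 ± 0.28, limma adjusted p = 0.018) and Actn1 (-0.27 ± 0.096, limma adjusted p = 0.04). Parvb fell the most in the primed state, at 1.43 and 1.68 RPKM in primed knockout, against 7.18 and 10.4 RPKM in primed wild type (-1.92 ± 0.25, limma adjusted p = 1.4e-13), followed by Fermt2, which encodes an integrin activator (-1.07 ± 0.11, limma adjusted p = 2.5e-21).

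Of 10 other matrix receptors, 2 rose in the naive state, beside 6.08% of all genes. In the primed state 4 of them fell, a smaller share than the 59.3% of all genes. After quantile normalization 6 were higher and 4 lower, beside 39.4% and 34.6% of all genes. Sdc4, a syndecan that acts with integrins on fibronectin, stood at 96.6 and 103 RPKM in naive knockout, against 41.3 and 40.3 RPKM in naive wild type (1.27 ± 0.15, limma adjusted p = 2.4e-14), with no overlap. The tetraspanin Cd151, a partner of laminin-binding integrins, differed by 0.44 ± 0.12 (limma adjusted p = 0.0024). Among primed libraries Bcam, a receptor for the Lama5 chain, stood at 36.1 and 30.05 RPKM in primed knockout, against 73.3 and 86.5 RPKM in primed wild type (-1.25 ± 0.10, limma adjusted p = 3.6e-31), and Sdc2 differed by -0.93 ± 0.21 (limma adjusted p = 2.2e-05).

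Of 15 matrix proteases and inhibitors tested, 1 rose in the naive state, the inhibitor Timp1 (0.42 ± 0.15, limma adjusted p = 0.05, under the threshold before rounding). This share of 6.67% stands beside 6.08% of all genes. In the primed state 2 rose and 6 fell, beside 4.16% and 59.3% of all genes, and after quantile normalization 9 were higher and 3 lower, beside 39.4% and 34.6%. Plat, the tissue plasminogen activator, stood at 24.1 and 20.4 RPKM in primed knockout, against 12.1 and 13.5 RPKM in primed wild type (0.75 ± 0.28, limma adjusted p = 0.014), and the membrane protease Mmp15 differed by 0.67 ± 0.27 (limma adjusted p = 0.024). Mmp11 stood at 4.26 and 4.0 RPKM in primed knockout, against 27.1 and 33.8 RPKM in primed wild type (-2.61 ± 0.21, limma adjusted p = 1.3e-32), and Htra1 differed by -0.99 ± 0.26 (limma adjusted p = 0.00039). Of 10 tested matrix genes and integrins outside the symbol rule, Itgav rose in the naive state, at 17.6 and 17.4 RPKM in naive knockout, against 12.9 and 11 RPKM in naive wild type (0.52 ± 0.18, limma adjusted p = 0.039). It was the only one called there, or 10% beside 6.08% of all genes. Of the same 10 genes 5 fell in the primed state, beside 59.3% of all genes. After quantile normalization 4 were higher and 4 lower, beside 39.4% and 34.6% of all genes. Agrn, a proteoglycan of basement membranes, stood at 49.8 and 46.6 RPKM in primed knockout, against 97.5 and 111.1 RPKM in primed wild type (-1.09 ± 0.097, limma adjusted p = 6.2e-28), and Fbn1, the gene of fibrillin, differed by -1.17 ± 0.28 (limma adjusted p = 9.1e-05).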

How the data were processed

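RNA was measured in 8 libraries, 2 for each genotype and state. Per the labels' protocols, ERCC spike-ins were added to the lysate and libraries were made from total RNA after Ribo-Zero treatment. cutadapt 1.9, STAR 2.5.2b, featureCounts 1.5.1, affy and genome build mm9 were used, per the submitters' processing notes, with parameters and strandedness not stated. The deposited files give RPKM per gene, 1 value a library, and hold 0 spike-in entries. Ties between genes show that the authors scaled the RPKM values of each state apart, by an unstated method. Of 968 sets of genes tied in 1 naive library, 100% were tied in all naive and 51.8% in all primed libraries.

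Values were analysed as log2(RPKM + 1). A gene entered the test if 2 or more libraries had 1 RPKM or more. The test was limma 3.58.1 (R 4.3.3) on 4 group means over all 8 libraries with an intensity trend, and p-values were Benjamini-Hochberg adjusted over all 13428 genes. As deposited, the estimated prior degrees of freedom were infinite, so every gene took its variance from the trend, and they were 3.71 after quantile normalization. Members and lists were chosen with earlier results of these data known. Library values are given for up to 5 called genes per class, direction and state, the 3 most abundant of each class, and chosen laminin, collagen IV and receptor genes, and up to 2 called genes are named per pathway list, direction and state. Other genes named, such as Col13a1, Itgb4 and the overlapping genes, were chosen after their values were seen. Alternatives tried were another pseudocount (0.1), other filters (none or 5 RPKM), quantile, median and loess scaling, each state alone, no trend, a replicate block, and each library left out, whose remaining partner then borrows its spread from the other groups. The fit was tested on simulated data. 1 gene is counted in these totals but is not reported by name here. Plots were made with matplotlib 3.10.9 under Python 3.11.15.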

Additional observations from a re-analysis of the deposited data

Results flagged for a closer look

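For 22 of the 52 genes the effect of knockout differed between the states by limma's test of the difference itself, primed minus naive on the log2(RPKM + 1) scale. The background was high, since 47.4% of all genes were called lower, with a median of -0.59. Basement membrane genes reported here differed by -1.31 for Lama1, -1.81 for Lama5, -1.64 for Lamb2, -0.836 for Lamc1, -1.48 for Nid2, -0.874 for Hspg2 and -0.788 for Col4a1. Fibrillar collagens differed by -0.899 for Col1a1, -1.34 for Col1a2, -1.36 for Col3a1 and -0.913 for Col5a1. Other collagens differed by -1.06 for Col26a1, -0.809 for Col6a1 and -2.11 for Col9a3. Sparc differed by -0.616. Integrins differed by -0.689 for Itga5, -0.75 for Itga6, -1.49 for Itga9, -0.699 for Itgb1, -0.765 for Itgb5 and 0.79 for Itgb2. The last was a larger difference on this scale in the primed state. Col1a1, Col3a1, Col6a1, Col26a1 and Itgb2 did not exceed 0.276, 0.258, 0.0895, 0.366 and 0.149 RPKM in any naive library. At such levels log2(RPKM + 1) keeps differences small, so for these genes the contrast mostly restates the primed difference. An effect particular to the primed state cannot be read from it. After quantile normalization 16 of the 21 lower ones and Itgb2 kept their call. Those that did not were Col1a1, Col4a1, Col5a1, Col6a1 and Itga5, at -0.12, -0.096, -0.13, -0.16 and -0.064.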

How the results depend on the processing

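As deposited, members called higher in naive KO against WT numbered 9, against 19 after quantile normalization, 17 after loess normalization within states and 4 to 11 with 1 library left out. Members called lower in naive KO against WT numbered 3, against 10, 9 and 1 to 5, and 7 after median centring. Members called higher in primed KO against WT numbered 3, against 25 by quantile, 23 by median and 21 by loess, and 1 to 3 with 1 library left out. Members called lower in primed KO against WT numbered 22, against 8 by median and 15 to 29 with 1 left out. For the knockout effect, primed minus naive, members called lower numbered 21, against 9 by median and 13 to 28 with 1 left out, and members called higher numbered 1, against 24, 21 and 22 by quantile, median and loess, 0 with a pseudocount of 0.1 or a filter of 5 RPKM, and 0 to 2 with 1 left out. With the replicate block, 4 rose and 2 fell in the naive state, 2 rose and 24 fell in the primed state, and 1 and 19 were higher and lower for the difference. Between deposited and quantile-normalized values, the share of all genes called higher rose from 6.08% to 31.9% (naive) and from 4.16% to 39.4% (primed). The share called lower went from 5.85% to 27.5% and from 59.3% to 34.6%. For the difference, higher calls went from 2.16% to 33.9% and lower ones from 47.4% to 30.5%. Shares of all genes under the other settings are not given, so those counts are not read as a result about these genes. The labels do not say what a replicate number marks, and 2 pairs do not settle whether it pairs libraries: deviations of knockout and wild-type replicate 1 correlated at 0.314 over genes in the naive and -0.0356 in the primed state. Signs are given for genes called as deposited or after the scaling. In primed KO against WT, quantile scaling turned the sign to positive, at 0.17 for Col4a1, 0.55 for Col9a3, 0.14 for Hspg2 and 0.18 for Nid1; median scaling turned the sign to positive, at 0.24 for Col4a1, 0.066 for Col5a2, 0.048 for Col6a2, 0.47 for Col9a3, 0.46 for Hspg2, 0.35 for Itgb1, 0.21 for Lamc1 and 0.18 for Nid1; loess scaling turned the sign to positive, at 0.15 for Col4a1, 0.55 for Col9a3 and 0.17 for Nid1. In the knockout effect, primed minus naive, quantile scaling turned the sign to positive, at 0.34 for Lamb1 and 0.67 for Nid1; median scaling turned the sign to positive, at 0.062 for Itga5, 0.00054 for Itga6, 0.052 for Itgb1, 0.65 for Lamb1, 0.70 for Nid1 and 0.13 for Sparc; loess scaling turned the sign to positive, at 0.29 for Lamb1 and 0.67 for Nid1. Among genes called in neither, quantile scaling also turned Col2a1 to 0.13 and Col4a2 to 0.16 in the primed state. The cause of these shifts was not tested. Depth is unknown and 2 libraries per group limit the precision of every value.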
